A study of Homo sapiens with 12 samples.

Results

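The retinoid receptor genes and PML were followed through both cytosine marks: RARA, RARB and RARG, which encode the retinoic acid receptors alpha, beta and gamma, RXRA, RXRB and RXRG, which encode the retinoid X receptors, and PML, whose product organises nuclear bodies. A listed region was assigned to one of these 7 genes when the deposited distances placed it in the gene body or at most 5000 bases upstream of one of the gene's starts. This gave 76 of 327931 regions listed for 5-hydroxymethylcytosine (5hmC) and 9 of 65535 regions listed for 5-methylcytosine (5mC). For 5hmC, RARA had 12 regions, RARB 20, RARG 10, RXRA 24, RXRG 3 and PML 7. For 5mC, RARB had 4 regions, RXRA 3, and RARA and RARG 1 each. RXRB had no listed region of either mark, and RXRG and PML had none for 5mC.

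The cells were HL-60, an established human promyelocytic leukemia line that lacks the PML-RARA fusion. Undifferentiated cells were sorted as CD11b-, and differentiated cells were grown with 1.5% dimethyl sulfoxide (DMSO, 211 mM) for 7 days and sorted as CD11b+, with dead cells removed by SYTOX Blue in both. No retinoid was part of either group, so the comparison is between DMSO-treated and untreated fractions of 1 line sorted on opposite sides of a surface marker. DNA of 3 replicates per state was divided between an antibody against 5mC (MeDIP) and one against 5hmC (hMeDIP), which gave 12 libraries. The 5hmC libraries held between 13010267 and 33693880 counts in listed regions. The 5mC table held only regions with a small deposited p-value (the largest was 0.0165), so a count of changed 5mC regions says nothing about how often 5mC changed. Its 65535 regions are as many rows as an older spreadsheet format holds below a header, and whether that limit shortened the list was not tested. A gene without a 5mC region in it was therefore not shown to lack 5mC. Counts were put on a common library total (CPM) and scaled by TMM, a method that takes most features as unchanged between libraries. The 5mC list cannot meet this, as its regions were selected by their p-value between the states. All 65534 5mC regions tested had an unadjusted p under 0.05 in edgeR's fit. Every 5mC direction and p-value below is therefore relative to a scaling on selected regions. Captured DNA depends on the share of cells with the mark, the number of marks per cell, CpG density and copy number, and these cannot be told apart here. No RNA was measured, so marker genes of the cell types could not be checked as expression.

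Retinoic acid, made from vitamin A, binds the retinoic acid receptors, which work as pairs with retinoid X receptors on paired hexamer sites in DNA. Without ligand the pairs recruit corepressors, and with ligand they recruit coactivators and drive granulocytic maturation of promyelocytes. In acute promyelocytic leukemia a translocation joins PML to RARA, and the fusion protein blocks maturation until retinoic acid or arsenic is given. RARB is itself a target of the receptors and is often silenced by promoter methylation in carcinomas. 5mC at gene starts generally goes with silencing, and 5hmC, made from 5mC by TET enzymes, is usually most abundant in bodies and enhancers of active genes.

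RefSeq (GRCh38.p14) gave 13 windows, each of 250 bases before and 50 after a start, for 6 of the 7 genes. 4 of them are shown, 1 each of RARB, RXRA, RXRG and RARG, and none of the windows of RARA or RXRB is shown. In the RARB window at chr3:25428013-25428312, plus strand, the capitals mark a direct repeat of 2 receptor hexamers spaced by 5 bases (a DR5 element, searched on both strands). A match of this kind was present in 31 of 35116 windows of the same length (0.0883%), and no window of another of these genes held one. Direct repeats spaced by 1 base (46 windows, 0.131%) or 2 bases (14 windows, 0.0399%) were in none of the 13 windows.

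RARB: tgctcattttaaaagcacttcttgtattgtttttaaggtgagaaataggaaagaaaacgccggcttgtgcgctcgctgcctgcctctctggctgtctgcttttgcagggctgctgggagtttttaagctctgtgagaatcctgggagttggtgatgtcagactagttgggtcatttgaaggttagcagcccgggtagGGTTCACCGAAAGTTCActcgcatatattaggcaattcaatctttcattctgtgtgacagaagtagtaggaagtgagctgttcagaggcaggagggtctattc

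In the next 3 windows the capitals mark CpG dinucleotides, the substrate of both marks. The RXRA window at chr9:134326205-134326504, plus strand, held 65 CpG, more than nearly all windows (percentile 100 when rounded, median 14).

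RXRA: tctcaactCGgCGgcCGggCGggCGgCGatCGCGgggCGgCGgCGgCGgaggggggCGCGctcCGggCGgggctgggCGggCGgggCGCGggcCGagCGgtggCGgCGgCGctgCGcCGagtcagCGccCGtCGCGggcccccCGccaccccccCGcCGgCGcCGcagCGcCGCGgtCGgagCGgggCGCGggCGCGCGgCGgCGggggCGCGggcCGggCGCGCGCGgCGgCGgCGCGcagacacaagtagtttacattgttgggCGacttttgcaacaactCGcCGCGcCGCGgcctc

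The RXRG window at chr1:165445077-165445376, minus strand, held 28 CpG.

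RXRG: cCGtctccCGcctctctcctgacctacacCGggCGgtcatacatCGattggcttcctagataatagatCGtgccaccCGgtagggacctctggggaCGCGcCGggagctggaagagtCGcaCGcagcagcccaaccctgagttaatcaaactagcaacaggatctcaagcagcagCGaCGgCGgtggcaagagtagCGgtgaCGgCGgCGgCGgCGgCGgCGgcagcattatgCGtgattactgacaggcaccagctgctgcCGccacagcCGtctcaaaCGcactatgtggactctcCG

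The RARG window at chr12:53232160-53232459, minus strand, held 14 CpG.

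RARG: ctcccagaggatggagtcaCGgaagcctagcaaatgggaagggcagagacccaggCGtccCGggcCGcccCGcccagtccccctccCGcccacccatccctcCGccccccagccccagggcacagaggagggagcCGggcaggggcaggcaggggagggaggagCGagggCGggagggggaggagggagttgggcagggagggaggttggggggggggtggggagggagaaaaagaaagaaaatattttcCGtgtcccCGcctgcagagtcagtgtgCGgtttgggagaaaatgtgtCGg

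Listed regions lay away from the starts of RARB, RXRA and RXRG, and nearer to that of RARG. The table coordinates that follow are on hg19 and count from 1, and they were not converted to the build of the windows. By the deposited distances, no region of either mark was listed within 5000 bases upstream of a start of RARB, RXRA, RXRG or PML. Further RefSeq starts of RARB and RXRA that those distances may not use were not checked. The nearest 5hmC region inside RARB was centred 6.25 kb from the start that the deposited distances imply. Inside RXRA the nearest was centred 6.08 kb from its start. Inside RARG the nearest was centred 1.54 kb from its start (chr12:53624001-53625000). There 5hmC rose with the states apart (log2 fold change 0.50, SE 0.210, adjusted p = 0.0409, edgeR). With 1 library left out at a time it was at 0.32 to 0.60, with an adjusted p of up to 0.326. RARG had 1 region just upstream, 561 bases before its start (chr12:53626601-53627000, chosen after its values were seen), where 5hmC went from 1.17, 1.21 and 1.69 CPM to 2.42, 1.25 and 1.57 CPM, and the states overlapped (log2 fold change 0.43, adjusted p = 0.113, edgeR). RARA and RARG each had 1 region that overlapped a further start inside the gene. Of the 76 regions, 2 (2.63%) overlapped a CpG island and 11 (14.5%) were within 2 kb of one, against 1.73% and 5.66% of all listed 5hmC regions. The RARG region 561 bases upstream was the only one counted through the 5000-base limit alone, and the nearest one left out was 5517 bases upstream of RXRA (chr9:137212401-137212800, 0.993 CPM before and 1.51 CPM after).

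The genes differed in how much 5hmC their listed regions held per length. In undifferentiated cells the level per kb of listed region was highest at RXRG (6.36 ± 0.393 CPM per kb, SD, n = 3), then RXRA (3.72 ± 0.215), RARB (2.46 ± 0.105), RARA (2.31 ± 0.0498), PML (2.21 ± 0.115) and RARG (1.95 ± 0.0728). RXRG and RXRA stood above the others in every library, whereas RARB overlapped RARA and RARA overlapped PML, and RARG was below PML. In differentiated cells the levels were 8.40 ± 1.54 at RXRG, 4.52 ± 0.232 at RXRA, 3.12 ± 0.0874 at RARA, 2.64 ± 0.0615 at RARB, 2.57 ± 0.0704 at RARG and 2.26 ± 0.221 CPM per kb at PML. RARA was then above RARB in every library, while RARB and RARG overlapped. Over both states RXRG was at the 98.3rd percentile and RXRA at the 91.3rd percentile of 20404 genes (median 2.55 CPM per kb). At RXRG, 1 region held most of the signal (chr1:165371401-165372400, 13.7 CPM per kb). The 5mC levels per kb, which rest on selected regions, were 10.4 ± 0.214 at RARG, 7.74 ± 0.149 at RXRA, 6.22 ± 0.870 at RARA and 5.86 ± 0.292 at RARB in undifferentiated cells.

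5hmC was higher after differentiation at 4 of the 6 genes with regions, RARA, RARG, RXRA and RXRG, and at none was it lower. Over all 20404 genes tested 51.6% passed, 25.7% as higher and 25.8% as lower, so that passing was common. Counts summed over the regions of a gene were compared between states by edgeR (quasi-likelihood F test, adjusted by Benjamini-Hochberg, threshold 0.05), which applies to all adjusted p-values below unless another test is named.

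RARA, the receptor most tied to granulocytic maturation, went from 20.8, 20.3 and 19.9 CPM in undifferentiated to 27.5, 28.2 and 26.6 CPM in differentiated libraries. The states did not overlap (1.34-fold, log2 fold change 0.42, SE 0.0573, adjusted p = 0.000102). RARG, the receptor gene best known from skin and hematopoietic stem cells, went from 17.5, 17.6 and 18.7 to 22.9, 24.2 and 23.9 CPM. Every differentiated library was above every undifferentiated one (log2 fold change 0.40, SE 0.0604, adjusted p = 0.000176). RARB stood at 40.5, 42.3 and 44.1 CPM before and at 44.6, 44.8 and 46.5 CPM after differentiation. These groups were close without overlapping, and the difference did not pass (log2 fold change 0.11, SE 0.0537, adjusted p = 0.104), although it did without differentiated replicate 2 (0.12, adjusted p = 0.0480).

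RXRA, the main pairing partner of nuclear receptors in myeloid cells, went from 76.9, 75.8 and 84.2 to 100, 96.6 and 90.5 CPM. The states were separate (log2 fold change 0.28, SE 0.0586, adjusted p = 0.00169). RXRG, a receptor gene with a narrow expression in muscle and brain, went from 13.2, 13.8 and 14.9 to 17.7, 22.2 and 15.6 CPM. The states did not overlap, but differentiated replicate 2 was far above the other two (log2 fold change 0.36, SE 0.105, adjusted p = 0.0110), and the call ended without undifferentiated replicate 1 (0.32, adjusted p = 0.0661). PML stood at 20.6, 19.0 and 18.8 CPM before and at 20.7, 17.7 and 21.3 CPM after. The states overlapped (log2 fold change 0.05, SE 0.0737, adjusted p = 0.621). In all, the states were apart at 5 of these 6 genes, all higher, against 57.1% of all genes in either direction and 27.5% as higher.

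**Figure D1:**
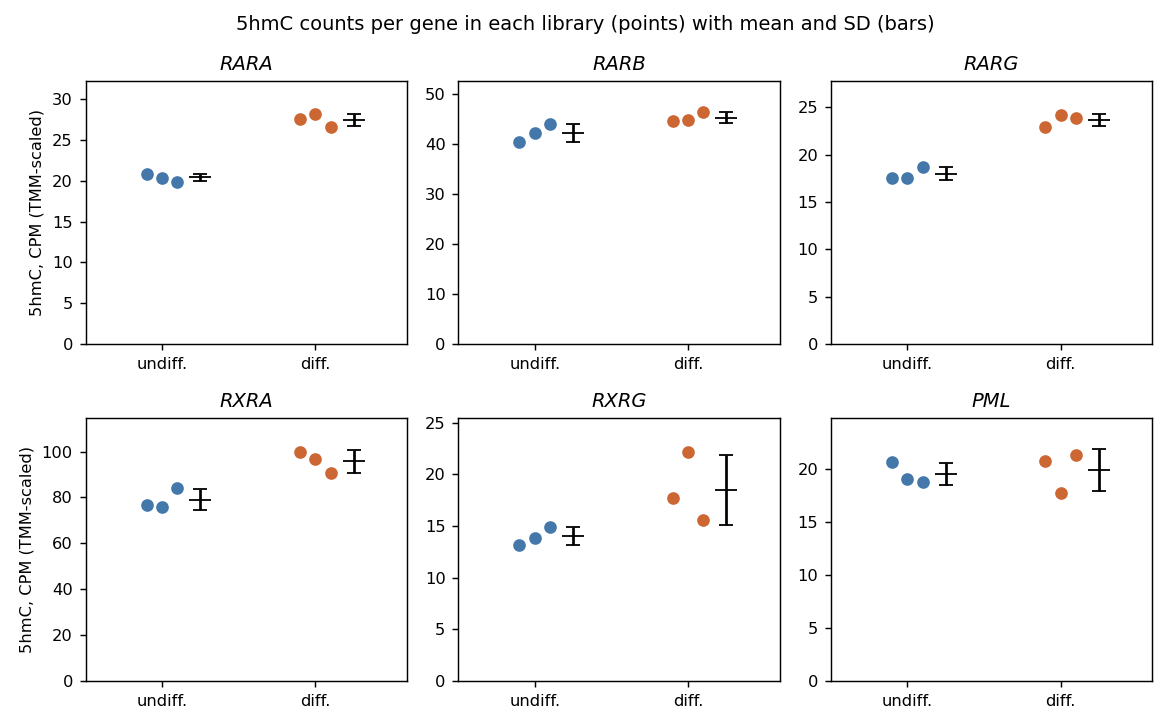
5hmC per gene in CPM (vertical axes from 0, each with its own scale) in the 3 undifferentiated (undiff., blue) and 3 differentiated (diff., orange) libraries, with black bars for the mean and SD. The states were separate at RARA, RARG, RXRA, RXRG and, narrowly, RARB, and overlapped at PML.

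These directions are relative to the scaling. TMM set the median of all genes to 0.0064 on the log2 scale. With library totals in its place the median was −0.19, and with TMM factors from strong regions (those with the highest mean counts) it was −0.27. With library totals, RARA alone passed as higher (0.22), and RARG (0.20), RXRG (0.17) and RXRA (0.07) did not. With factors from strong regions, 0 of the 6 passed as higher and PML passed as lower (−0.23, adjusted p = 0.0403). RARB was below 0 under both of these scalings (−0.09 and −0.17), and RXRA was at −0.0023 under the second.

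**Figure D2:**
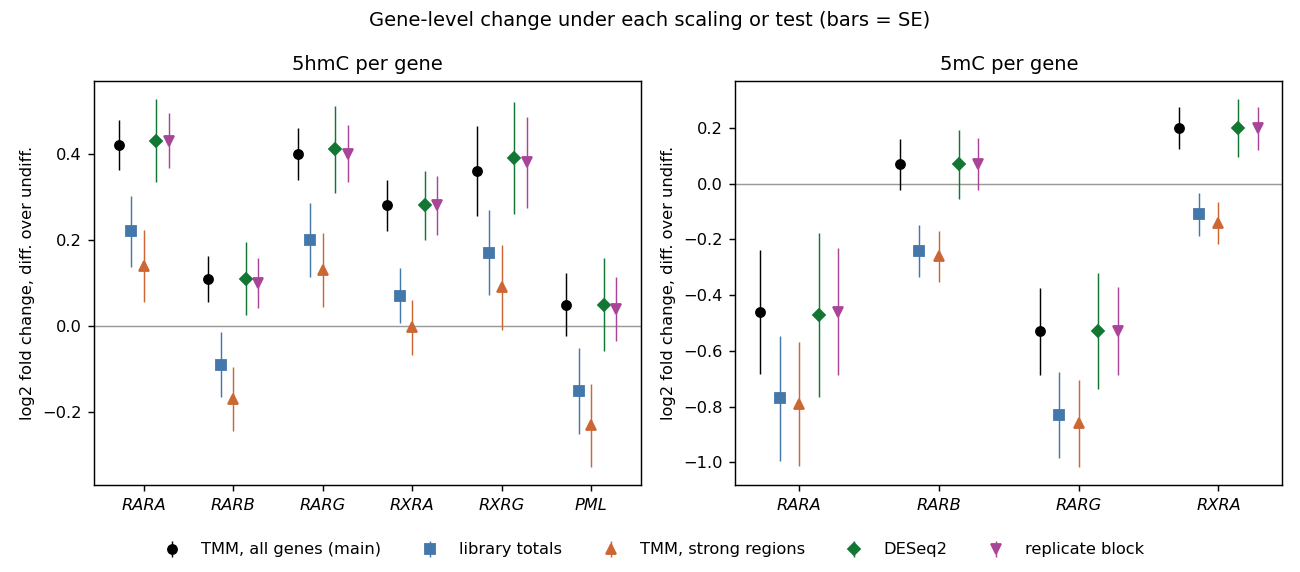
Log2 fold change per gene (differentiated over undifferentiated, vertical axes) with SE bars under 3 scalings, DESeq2 and a fit with replicate number as a block, for 5hmC (left) and 5mC (right). Library totals and factors from strong regions lower every gene by a similar amount, which takes RARB and PML below 0 for 5hmC.

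Region by region, the called 5hmC changes were rises at all but 1 of the called regions of RARA and of RXRA and at all of RARG, while RARB, RXRG and PML had both. Of the 76 regions, 29 were higher, 9 lower and 38 did not pass, where over all 327901 regions tested 50.3% passed, 27% as higher and 23.3% as lower. In the authors' deposited table, 26 of the 76 were higher and 7 lower at an adjusted p under 0.05. The states did not overlap at 28 regions as higher and at 12 as lower, against 26.2% and 25.9% of all regions (52.2% together). With library totals 4 regions were higher and 12 lower, with factors from strong regions 2 were higher and 14 lower, and with DESeq2 5 were higher and 2 lower. The count of higher regions was 12 without undifferentiated replicate 1, 19 without differentiated replicate 1, 17 without differentiated replicate 3 and 29 without differentiated replicate 2. The count of lower regions was 4 without differentiated replicate 1 and 5 without undifferentiated replicate 1. On simulated counts with 100 regions changed by each fold, the region test recovered 4% of 1.5-fold and 56% of 2-fold changes. Far more of the real regions passed, which eases the adjustment, so these shares are not the power of the test here. A region that did not pass was not shown to be unchanged. Of 28 called regions picked by the rule for named regions, 17 did not pass with library totals, 19 with factors from strong regions and 22 with DESeq2. None changed direction, but regions chosen because they passed were unlikely to, so this is not a test of the directions.

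**Figure D3:**
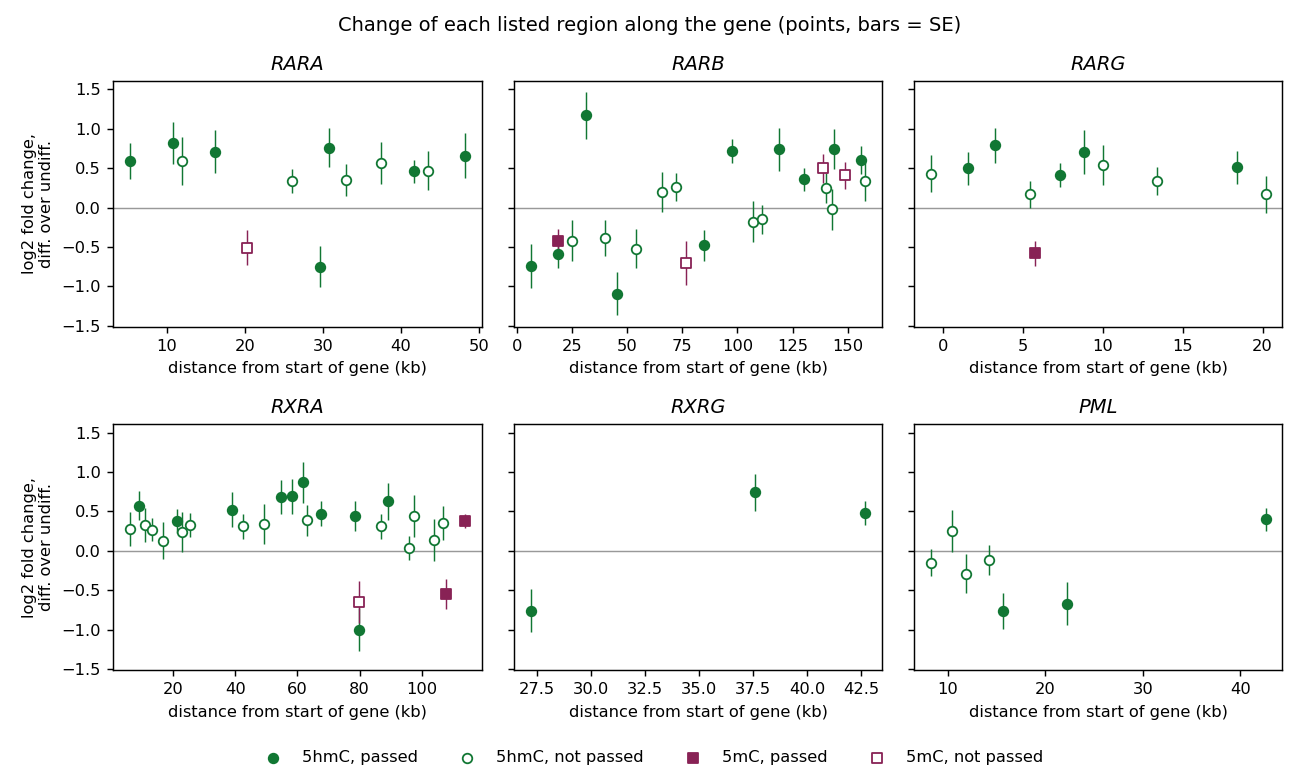
Log2 fold change (differentiated over undifferentiated, vertical axes) with SE bars of each listed region against its distance in kb from the start of the gene, for 5hmC (circles) and 5mC (squares), filled where the region passed. RARA and RXRA each have 1 5hmC region far below the rest, and 6 of the 7 5hmC regions in the first 60 kb of RARB lie below 0.

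Along RARA, 11 of 12 regions were above 0, 6 of them passing, and 1 fell. The longest region (chr17:38506001-38508200) held 6.19, 6.03 and 5.85 CPM before and 8.62, 8.86 and 7.67 CPM after, with the states apart (log2 fold change 0.46, SE 0.144, adjusted p = 0.00821). It passed whichever library was left out, but not with library totals (0.24) or factors from strong regions (0.16). The largest rise was at chr17:38476001-38476400, 10.8 kb into the gene, from 0.977, 0.627 and 0.785 to 1.13, 1.61 and 1.63 CPM (0.82, SE 0.265, adjusted p = 0.00937). The states were apart here too, but the call ended without differentiated replicate 3 (0.67), with library totals (0.62), with factors from strong regions (0.54) and with DESeq2 (0.85). The fall was at chr17:38494801-38495200, 3072 bases before a further RARA start, from 1.76, 1.40 and 1.39 to 0.733, 1.25 and 0.908 CPM. No differentiated library reached an undifferentiated one (−0.75, SE 0.258, adjusted p = 0.0139), and the call ended without undifferentiated replicate 1 (−0.59), differentiated replicate 1 (−0.63) or differentiated replicate 3 (−0.73) and with DESeq2 (−0.71). The next region, chr17:38495801-38496600, rose from 0.950, 1.06 and 1.09 to 2.25, 1.07 and 1.66 CPM (0.76, SE 0.249, adjusted p = 0.0107), with the lowest differentiated library inside the undifferentiated range. That call ended without undifferentiated replicate 1 (0.68) or differentiated replicate 1 (0.54), and with library totals (0.55), factors from strong regions (0.47) and DESeq2 (0.74). The region over the further start itself (chr17:38498001-38498800) did not pass (0.35, adjusted p = 0.147).

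Along RARG all 10 regions were above 0 and 5 passed. The largest rise was 3.24 kb into the gene (chr12:53622201-53623400), from 1.63, 1.11 and 0.845 to 1.80, 1.88 and 2.66 CPM. All differentiated libraries were higher (log2 fold change 0.79, SE 0.224, adjusted p = 0.00371), although the call ended without differentiated replicate 3 (0.52), with factors from strong regions (0.50) and with DESeq2 (0.81). The region with the most signal (chr12:53617801-53619600) held 3.36, 4.24 and 3.44 CPM before and 4.34, 5.19 and 5.07 CPM after (0.41, SE 0.155, adjusted p = 0.0238). Its lowest differentiated library was just above its highest undifferentiated one, and the call was lost without undifferentiated replicate 1 (0.33) or 3 (0.38) or differentiated replicate 3 (0.37). It was lost too with library totals (0.20), factors from strong regions (0.12) and DESeq2 (0.42). The longest region (chr12:53611601-53613600), which overlaps a further RARG start, did not pass (0.34, adjusted p = 0.0884).

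RARB was mixed along its length: 10 of its 20 regions were above 0 and 10 below, with 6 passing as higher and 4 as lower. Of the first 7 regions, up to 60 kb from the start, 6 were below 0, and 3 fell and 1 rose (median log2 fold change −0.52). Of the 13 regions beyond 60 kb, 9 were above 0, and 5 rose and 1 fell (median 0.26). The 60 kb division was chosen after the values were seen and carries no test. Summed over the first stretch, 5hmC stood at 10.6, 12.2 and 12.3 CPM before and at 7.66, 7.79 and 9.33 CPM after. Over the rest it stood at 29.6, 29.4 and 31.9 CPM before and at 37.5, 37.2 and 37.4 CPM after. The states were apart in both stretches, in opposite directions. As the division was drawn from these same values, this separation is no support for it. A 5hmC region 6555 bases upstream of the start, outside the rule, did not pass (chr3:25462001-25463200, 6.81 CPM before and 8.16 CPM after, log2 fold change 0.25, adjusted p = 0.163).

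In the first stretch the deepest fall was at chr3:25515201-25515600, from 1.55, 1.21 and 1.75 to 0.676, 0.358 and 0.845 CPM. All differentiated libraries were below all undifferentiated ones (log2 fold change −1.09, SE 0.278, adjusted p = 0.00152). The single rise of this stretch was at chr3:25500801-25501200, from 0.570, 0.627 and 0.483 to 1.07, 1.43 and 1.35 CPM (1.17, SE 0.294, adjusted p = 0.00133), with the states apart. Both passed whichever library was left out and under every scaling and with DESeq2. They rested on few raw counts. The fall had 57, 25 and 29 before and 12, 4 and 27 after. The rise had 21, 13 and 8 before and 19, 16 and 43 after. The region nearest the start (chr3:25475801-25476200) went from 1.14, 1.59 and 1.09 to 0.676, 0.716 and 0.814 CPM, again without overlap (−0.74, SE 0.280, adjusted p = 0.0253). The call was lost without undifferentiated replicate 2 (−0.57) or differentiated replicate 1 (−0.68) or 3 (−0.86), and with DESeq2 (−0.76).

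In the second stretch the strongest region (chr3:25598601-25601600) held 7.08, 7.48 and 7.54 CPM before and 10.3, 9.13 and 8.92 CPM after. They did not overlap (log2 fold change 0.36, SE 0.145, adjusted p = 0.0345), but the call ended without undifferentiated replicate 1 (0.33), 2 (0.37) or 3 (0.38) or differentiated replicate 1 (0.29). Nor did it pass with library totals (0.14), factors from strong regions (0.06) or DESeq2 (0.37). The smallest adjusted p among all 76 regions was at chr3:25565801-25568600, chosen after its values were seen, which went from 3.66, 4.0 and 4.10 to 7.27, 5.64 and 6.14 CPM (0.72, SE 0.150, adjusted p = 0.000186). Every differentiated library there was above every undifferentiated one.

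Along RXRA 23 of 24 regions were above 0, 9 of them passing, and 1 fell. The largest rise was at chr9:137280001-137280400, 61.9 kb into the gene, from 1.06, 0.723 and 0.604 to 1.69, 1.43 and 1.53 CPM. No libraries overlapped (log2 fold change 0.87, SE 0.259, adjusted p = 0.00550). The call held whichever library was left out, but not with factors from strong regions (0.59). The strongest region (chr9:137260201-137261600) held 16.4, 15.6 and 17.9 CPM before and 21.0, 24.4 and 17.0 CPM after, which overlapped and did not pass (0.31, SE 0.160, adjusted p = 0.0981). Without differentiated replicate 3 it passed (0.44, adjusted p = 0.0303). The fall was at chr9:137298001-137298400, from 1.74, 1.45 and 1.33 to 0.507, 0.985 and 0.845 CPM (−1.0, SE 0.269, adjusted p = 0.00241). It was without overlap, it passed whichever library was left out, under every scaling and with DESeq2, and it lay 792 bases from a CpG island. The raw counts were few (64, 30 and 22 before and 9, 11 and 27 after).

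RXRG had 3 regions, of which 2 rose and 1 fell. The strongest region (chr1:165371401-165372400) went from 10.9, 11.1 and 12.1 to 15.4, 19.9 and 12.8 CPM, apart but with a wide differentiated spread (log2 fold change 0.48, SE 0.157, adjusted p = 0.0111), and the call ended without undifferentiated replicate 1 (0.45), with library totals (0.24) and with factors from strong regions (0.17). The next region (chr1:165376601-165377400) went from 1.09, 0.965 and 1.21 to 1.69, 1.70 and 1.94 CPM (0.74, SE 0.235, adjusted p = 0.00824), apart, with the call ending without differentiated replicate 3 (0.65). It ended also with library totals (0.53), factors from strong regions (0.46) and DESeq2 (0.74). The region nearest the start (chr1:165387201-165387600) went from 1.19, 1.45 and 1.69 to 0.733, 0.716 and 0.908 CPM (−0.76, SE 0.270, adjusted p = 0.0168). The states were apart there as well, and the call ended without undifferentiated replicate 3 (−0.66) or differentiated replicate 1 (−0.70), and with DESeq2 (−0.81).

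PML, which did not pass as a whole, was mixed along its length: 5 of 7 regions were below 0, 2 fell and 1 rose. The region at chr15:74302401-74303000 went from 2.20, 1.64 and 1.93 to 1.07, 0.985 and 1.28 CPM, without overlap (log2 fold change −0.76, SE 0.230, adjusted p = 0.00612), and the call was lost without undifferentiated replicate 1 (−0.61) and with DESeq2 (−0.76). The region at chr15:74309001-74309400 went from 1.44, 1.06 and 1.21 to 0.676, 0.627 and 0.939 CPM, also apart (−0.67, SE 0.275, adjusted p = 0.0384). The call was lost without undifferentiated replicate 1 (−0.50) or differentiated replicate 1 (−0.58) or 2 (−0.60), and with DESeq2 (−0.67). The rise was in the longest region, of 4000 bases (chr15:74327601-74331600), from 8.06, 8.73 and 8.03 to 11.9, 9.04 and 11.4 CPM. The states were narrowly apart (0.40, SE 0.148, adjusted p = 0.0212), and the call ended without undifferentiated replicate 1 (0.38) or 3 (0.38) or differentiated replicate 1 (0.33) or 3 (0.37). It ended too with library totals (0.19), factors from strong regions (0.11) and DESeq2 (0.41).

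Whether the regions of a gene changed by unequal amounts was tested with edgeR's diffSpliceDGE, which compares each region with the other regions of its gene and so does not depend on the scaling between libraries. The test was added after the region values had been seen. Unequal change passed at RARB (F = 6.51, adjusted p = 5.17e-13, 20 regions), RXRG (F = 10.6, adjusted p = 8.66e-05), PML (F = 5.13, adjusted p = 0.000120), RARA (F = 2.58, adjusted p = 0.00614) and RXRA (F = 1.90, adjusted p = 0.0127). RARG did not pass (F = 0.870, adjusted p = 0.590). Unequal change was common, at 76.3% of 17157 genes with more than 1 region. Relative to the rest of its gene, the RARA region at chr17:38494801-38495200 was lower by a log2 ratio of −1.20 (adjusted p = 0.000181) and the RXRA region at chr9:137298001-137298400 by −1.30 (adjusted p = 0.000155). The RXRG region nearest the start was lower by −1.18 (adjusted p = 0.000427). No other region of RARA, RXRA or RXRG passed in this test, which called 33.7% of 179903 regions of genes with more than 1 region. At RARB and PML regions passed in both directions. In RARB chr3:25500801-25501200 was at 1.05 (adjusted p = 0.0037) and chr3:25515201-25515600 at −1.21 (adjusted p = 4e-04). In PML chr15:74327601-74331600 was at 0.35 (adjusted p = 0.0413) and chr15:74302401-74303000 at −0.81 (adjusted p = 0.00397). The gene call ended at PML without undifferentiated replicate 1 (F = 2.23). At RARA it ended without undifferentiated replicate 1 (F = 1.88) or differentiated replicate 3 (F = 1.62), and at RXRA without undifferentiated replicate 1 (F = 1.29) or differentiated replicate 1 (F = 1.19).

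In the 5mC list, RARG was lower after differentiation, RARA passed narrowly as lower per gene, RXRA was higher and RARB did not pass. Of all 12637 genes with listed 5mC regions 84.2% passed, where every listed region had a small deposited p-value, and nothing can be read from how many of these genes passed. The adjusted p-values per gene, here and for the gene lists below, were taken over these 12637 genes alone. They do not correct for the selection of the listed regions by their p-value between the same states. RARG, with 1 region, went from 10.2, 10.5 and 10.6 to 8.48, 5.74 and 7.23 CPM, without overlap (log2 fold change −0.53, SE 0.155, adjusted p = 0.00211). The states were apart at 1 of these 4 genes as higher and at 1 as lower, against 39% and 38.8% of the list (77.8% together). RXRA went from 33.5, 34.0 and 34.8 to 37.1, 41.2 and 39.1 CPM, also without overlap (0.20, SE 0.0757, adjusted p = 0.0151). Of its 3 regions 1 was above 0 and held most of this sum, and 2 were below 0. With library totals RXRA was at −0.11 and with factors from strong regions at −0.14, and its call ended with DESeq2 (0.20) and without differentiated replicate 2 (0.16). RARA, with 1 region, went from 4.23, 5.61 and 5.09 to 4.24, 2.80 and 3.62 CPM. The states overlapped (−0.46, SE 0.222, adjusted p = 0.0482), and the call ended with DESeq2 (−0.47) and without undifferentiated replicate 2 (−0.37) or 3 (−0.44) or differentiated replicate 2 (−0.34) or 3 (−0.47). Fitted among the listed regions and adjusted over 328588 tests in place of 12637, the same RARA counts did not pass (−0.51, adjusted p = 0.11). Before adjustment edgeR's p was smaller in that fit (0.0218) than per gene (0.0406). RARB stood at 23.4, 24.5 and 25.9 CPM before and 24.9, 25.5 and 26.9 CPM after, with overlap (0.07, SE 0.0909, adjusted p = 0.480). With library totals (−0.24) and factors from strong regions (−0.26) RARB passed as lower.

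Adjusted over the 328588 tests that the deposited p-values imply, 4 of the 9 member regions passed for 5mC, 1 as higher and 3 as lower (72.7% of the listed regions passed, 35.7% as higher and 37.1% as lower). The states did not overlap at 2 of the 9 as higher and at 4 as lower, against 43.1% and 43% of the list (86.1% together). The rise was over a CpG island at the end of RXRA (chr9:137331401-137333600), from 23.3, 24.3 and 24.4 to 28.6, 34.2 and 31.1 CPM. The states were apart (log2 fold change 0.38, SE 0.0930, adjusted p = 0.00299), and the call held whichever library was left out, but not with library totals (0.12), factors from strong regions (0.10) or DESeq2 (0.38, adjusted p = 0.110). At chr9:137325201-137327000, also in RXRA, 5mC went from 8.35, 5.56 and 7.07 to 5.75, 3.71 and 4.80 CPM (−0.55, SE 0.191, adjusted p = 0.0395). The states overlapped by 1 library, and the call ended without undifferentiated replicate 1 (−0.39) or 3 (−0.54) or differentiated replicate 2 (−0.41) or 3 (−0.55), and with DESeq2 (−0.55). In RARG, chr12:53619801-53620800 went from 10.4, 10.7 and 10.8 to 8.34, 5.64 and 7.09 CPM (−0.58, SE 0.155, adjusted p = 0.00662). It was without overlap, and the call was lost without differentiated replicate 2 (−0.46) and with DESeq2 (−0.59). The third fall, in RARB, is given with its 5hmC value next.

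Both marks were listed together at 6 of the 9 5mC regions, sharing at least 1 base with a 5hmC region (67.8% of all listed 5mC regions did), and 2 of the 9 (22.2%, against 18.8% of all) had the same edges in both tables. These 2 regions were the RARB region at chr3:25488001-25488600, 18.5 kb into the gene, and the RXRA region at chr9:137298001-137298400 described above. In RARB, 5mC went from 9.56, 11.4 and 10.2 to 7.43, 7.42 and 8.35 CPM (−0.42 on the log2 scale, SE 0.152, adjusted p = 0.0462). 5hmC fell there from 3.01, 4.24 and 3.56 to 2.54, 2.06 and 2.35 CPM (−0.59, SE 0.176, adjusted p = 0.00556). Both marks were without overlap. The 5hmC call held whichever library was left out, and the 5mC call ended when any 1 of the 6 libraries was left out (−0.48 to −0.35). With DESeq2 neither passed (−0.60 for 5hmC, adjusted p = 0.0601, and −0.43 for 5mC, adjusted p = 0.290). In RXRA, 5mC stood at 2.42, 4.66 and 4.04 CPM before and at 2.14, 2.47 and 2.40 CPM after, with undifferentiated replicate 1 inside the differentiated range, and did not pass (−0.65, SE 0.266, adjusted p = 0.0814) where 5hmC did.

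**Figure D4:**
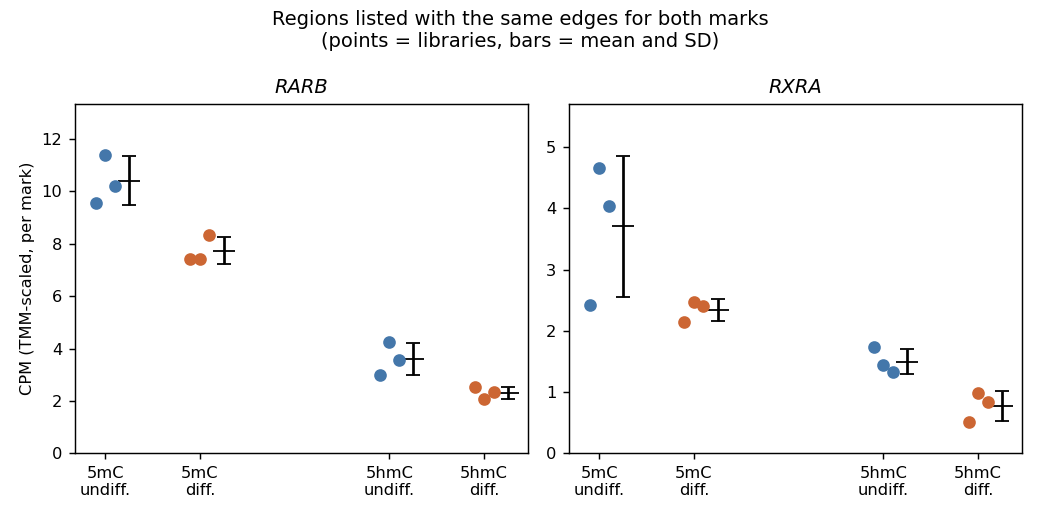
5mC and 5hmC in CPM (vertical axes from 0, scaled within each mark) at the 2 regions with the same edges in both tables, in the 3 undifferentiated (blue) and 3 differentiated (orange) libraries with mean and SD. Both marks are lower after differentiation at the RARB region, and at the RXRA region the 5mC libraries overlap.

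At the other shared places the marks differed. The RARG region that lost 5mC shared 800 bases with a 5hmC region that did not pass (log2 fold change 0.17, adjusted p = 0.391). The RXRA region that lost 5mC shared 200 bases with a 5hmC region at 0.35 (adjusted p = 0.160). The 5mC rise at the end of RXRA shared 800 bases with a 5hmC region that began 370 bases past the gene and was at 0.01 (adjusted p = 0.948). In RARB a 5mC region at 0.50 (adjusted p = 0.0551) lay within a 5hmC region at 0.25 (adjusted p = 0.270).

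Across the 6 5hmC libraries, the gene whose level was most like that of RARA, among 7127 genes of similar CPM that share no region with it, was TLR8-AS1 (Pearson's r = 0.9989 of log2 CPM), followed by PLA2G4A (0.9982). The most similar gene was GMEB2 for RARB (0.9875), WDFY3-AS2 for RARG (0.9985), EVC for RXRA (0.9936), C10orf54 for RXRG (0.9974) and PCDHGA11 for PML (0.9858). The 6 points of each correlation are the same libraries in 2 states and share their depth, so these values, picked as the highest, describe likeness only.

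The genes that act around these receptors moved in both directions. Of 25 tested genes of retinoid supply and breakdown, 4 gained and 4 lost 5hmC (median log2 fold change −0.07, all genes 0.0064). These counts and those of the next lists stand against 25.7% higher and 25.8% lower of all genes tested. CYP26B1, which encodes an enzyme that degrades retinoic acid, rose from 3.77 ± 0.434 to 5.61 ± 0.417 CPM (0.59, SE 0.130, adjusted p = 0.00226, n = 3), but did not pass with factors from strong regions (0.32). RBP7, which encodes a cellular retinol-binding protein, fell from 23.7 ± 0.392 to 15.6 ± 2.32 CPM (−0.57, SE 0.0808, adjusted p = 0.000132). Of 13 nuclear receptors that pair with RXR, 2 rose and 1 fell (median 0.04). NR4A2, an orphan receptor gene, rose (0.49), a call lost without undifferentiated replicate 1 (0.47) or differentiated replicate 3 (0.40), with library totals (0.30), factors from strong regions (0.22) and DESeq2 (0.49). THRB, a thyroid hormone receptor gene, rose (0.17), but did not pass without undifferentiated replicate 1 (0.15) or with DESeq2 (0.18) and was below 0 with library totals (−0.03) and factors from strong regions (−0.11). PPARD, which encodes a fatty acid sensing receptor, fell (−0.17), but did not pass without undifferentiated replicate 1 (−0.15) or with DESeq2 (−0.16).

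Of 19 coregulator genes, 3 rose and 8 fell (median −0.10). MED1, which encodes the Mediator subunit that binds nuclear receptors, fell from 53.7 ± 2.03 to 38.8 ± 2.27 CPM (−0.48 on the log2 scale, SE 0.0572, adjusted p = 4.29e-05), and SIN3A, a corepressor scaffold gene, fell by 0.46. TBL1X, which encodes a subunit of the NCoR corepressor complex, rose from 22.5 ± 1.09 to 29.7 ± 2.93 CPM (0.38, SE 0.0713, adjusted p = 0.000738), but did not pass with library totals (0.19) or factors from strong regions (0.11). Of 20 PML nuclear body genes, 1 rose and 8 fell (median −0.11). MDM2, which encodes the ubiquitin ligase of p53, fell from 12.3 ± 0.291 to 7.47 ± 0.336 CPM (−0.73, SE 0.0830, adjusted p = 3.29e-05). SP140, the gene of a nuclear body protein of blood cells, rose (0.31). It did not pass with library totals (0.11) or factors from strong regions (0.03), and was at −0.11 over regions near its start alone.

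Of 10 other fusion partners of RARA in leukemia, 1 rose and 3 fell in 5hmC (median log2 fold change −0.09). GTF2I, which encodes a general transcription factor, was among those that fell (−0.35). Of 24 genes known to be induced by retinoic acid in myeloid cells, 7 rose and 4 fell (median 0.06). BTG1, an antiproliferative gene, rose from 1.25 ± 0.127 to 1.99 ± 0.158 CPM (0.63, SE 0.189, adjusted p = 0.0131), but did not pass with library totals (0.45), factors from strong regions (0.37) or DESeq2 (0.66). UBA7, which encodes the enzyme that starts ISG15 conjugation, fell from 7.68 ± 0.287 to 4.69 ± 0.983 CPM (−0.80, SE 0.133, adjusted p = 0.000350). With library totals the counts in the order given were 2 higher and 8 lower, 0 and 4, 1 and 14, 0 and 12, 0 and 6, and 0 and 6.

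In the 5mC list, 7 of 14 genes of retinoid supply rose and 5 fell. ALDH1A1, which encodes an enzyme that makes retinoic acid, fell from 10.4 ± 1.1 to 6.79 ± 0.685 CPM (−0.61 on the log2 scale, SE 0.156, adjusted p = 0.000491). Of 8 RXR partners, 3 rose and 4 fell, with PPARG, the adipocyte and macrophage receptor gene, going from 18.4 ± 0.831 to 11.3 ± 0.399 CPM (−0.70, SE 0.119, adjusted p = 5.4e-07). Of 19 coregulator genes, 8 rose and 8 fell. NRIP1, a corepressor gene induced by ligand, rose (0.47, or 0.16 and 0.13 and not passing with library totals and factors from strong regions), and TBL1X rose (0.54). SIN3A fell (−0.62), as it did in 5hmC. Of 17 PML nuclear body genes, 3 rose and 10 fell, among them ATRX, a chromatin remodeler gene, from 27.7 ± 1.56 to 15.2 ± 0.623 CPM (−0.86, SE 0.0999, adjusted p = 5.31e-12). Of 7 fusion partner genes, 2 rose and 4 fell, and of 17 genes induced by retinoic acid, 6 rose and 8 fell. These shares stand against 41% higher and 43.2% lower of all genes in the list.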

How the data were processed

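MeDIP and hMeDIP libraries of HL-60 cells (3 undifferentiated and 3 differentiated per mark) were analysed from the read counts per enriched region that the authors deposited unnormalized. The submitters' processing notes list SICER 1.1, edgeR 2.11, BWA, bedtools 2.17.0 and SAMtools 0.1.18 beside hg19, without roles, and do not say whether libraries were pooled to call regions. The authors also deposited a log2 fold change (undifferentiated over differentiated) and a p-value and adjusted p-value per region, per the file headers. Of 327949 listed 5hmC regions, 18 without values were left out. The 5mC table held 65535 regions with p-values up to 0.0165 and adjusted p-values up to 0.0826, which imply 328588 tests, and 5mC region p-values were adjusted over that number. The 5mC p-values per gene were adjusted over the 12637 genes with listed regions only. Sums over listed regions are therefore not the depth of the MeDIP libraries (6076100 to 9670011 counts).

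Counts per region, and sums per gene, were compared in R 4.3.3 with edgeR 4.0.16 (filterByExpr, TMM, quasi-likelihood F test, two-sided, Benjamini-Hochberg adjustment over all genes or regions, threshold 0.05, n = 3 per state). Library sizes were the total counts in listed regions, and each SE was the fold change divided by the root of F. Unequal change within a gene was tested with diffSpliceDGE. Alternatives were 2 other scalings, DESeq2 1.42.0, no filter, replicate number as a block, other assignments of regions to genes, and leaving out each library. The scripts were tested on simulated data: per gene 79% of 1.5-fold and 96% of 2-fold changes in 5hmC were recovered, and for 5mC 68% and 92%. For unequal change in 5hmC 4% and 49% were recovered, with 7.02% false calls. Each simulation changed 100 genes or regions per fold, far fewer than passed in the data, so these shares are not the power of the tests here.

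All 7 genes were named in each mark. For each gene the regions named were those that passed where there were at most 6, otherwise the 3 largest rises and 3 largest falls, and besides them the strongest, the longest and the nearest upstream region, and from each list up to 2 genes per direction. Not every region or gene so chosen is reported here. The genes, lists and rules were chosen with earlier results of these data known. Samples were called replicates by the labels, and p-values measure the spread between them.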

Additional observations from a re-analysis of the deposited data

How the results depend on the processing

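Calls changed with the scaling, with DESeq2 and with single libraries. For 5hmC per gene, library totals gave PML −0.15, RARB −0.09, RARG 0.20, RXRA 0.07 and RXRG 0.17 with 1 of the genes higher, and factors from strong regions gave PML −0.23, RARA 0.14, RARB −0.17, RARG 0.13, RXRA −0.0023 and RXRG 0.09 with 0 higher and 1 lower. These 2 scalings gave 4 and 2 higher 5hmC regions, the second also 14 lower, and took the RXRA region at chr9:137260201-137261600 to −0.0027. They put THRB at −0.03 and −0.11, and SP140 was at −0.11 over regions near starts alone. For 5mC they gave RARB −0.24 and −0.26, RXRA −0.11 and −0.14, 0 higher genes, 0 higher regions and 6 lower regions each. DESeq2 gave 5 higher and 2 lower 5hmC regions, and for 5mC RARA −0.47, RXRA 0.20, 0 genes higher, 1 lower, and 0 regions either way. Its p-values are from a Wald test, and the cause of the lower counts was not tested. Over regions near starts alone RARA was at 0.26 and 1 gene was higher for 5hmC, from fewer regions, and for 5mC no member could be tested. 5mC p-values adjusted over the listed regions alone gave 3 higher and 6 lower.

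Leaving out 1 library gave PML −0.01 to 0.10, RARB 0.07 to 0.14, RXRG 0.25 to 0.50 and 3 to 5 higher genes for 5hmC, 12 to 29 higher and 4 to 8 lower regions, and F of 2.23 to 5.55 for PML, 1.62 to 3.01 for RARA and 1.19 to 2.68 for RXRA. For 5mC it gave RARA −0.61 to −0.34, RXRA 0.16 to 0.23, 0 to 1 higher and 1 to 2 lower genes, and 1 to 2 higher and 0 to 3 lower regions.

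Replicate numbers showed no sign of pairing the libraries. As deviations from the state means, same-numbered libraries correlated at −0.00688, −0.154 and −0.174 for 5hmC and at 0.0155, −0.00172 and −0.0088 for 5mC. Differently numbered ones correlated at −0.0512 to 0.169 for 5hmC and at −0.0308 to 0.0328 for 5mC. With 3 libraries per state these values are tied to each other and cannot exclude pairing. With the replicate block, 19 5hmC regions were higher, 6 of 28 called regions picked for naming did not pass, F for RXRA was 1.53 and did not pass (adjusted p = 0.0854), RARA was at −0.46 for 5mC and did not pass (adjusted p = 0.0511), and 1 gene was lower. Regions held few counts each, which limits single-region values.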

Other observations

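Regions within 25000 bases of these genes but outside the rule were looked at as well. Of 33 such 5hmC regions tested, 10 rose and 3 fell, where 27% of all 5hmC regions passed as higher and 23.3% as lower (50.3% together). Of 6 such 5mC regions 3 rose and 2 fell, where 35.7% of the listed 5mC regions passed as higher and 37.1% as lower (72.7% together). These counts are not read as a trait of the surroundings of the genes. Both regions at 8824 and 19024 bases upstream of RARA, which lie in the neighbouring gene CDC6 (a DNA replication licensing gene), fell, while RARA itself gained. The nearer one (chr17:38455201-38456600) went from 4.50, 4.39 and 3.44 to 2.59, 2.15 and 2.50 CPM, without overlap (log2 fold change −0.77, SE 0.168, adjusted p = 0.000313 in edgeR's fit over all regions, n = 3 per state). The farther one (chr17:38445601-38446400) went from 2.63, 3.18 and 2.66 to 1.80, 1.70 and 1.06 CPM (−0.98, SE 0.207, adjusted p = 0.000212). A 5mC region within the farther one (chr17:38445801-38446400) fell too (−0.77, SE 0.235, adjusted p = 0.0173), a call lost with DESeq2 and without undifferentiated replicate 2 (−0.60) or 3 (−0.74) or differentiated replicate 3 (−0.65). Just past the other end of RARA, 506 bases beyond it, chr17:38514401-38515000 rose (0.66, SE 0.176, adjusted p = 0.00221), but did not pass with factors from strong regions (0.37).

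The smallest adjusted p near any of the genes was 23770 bases past the end of RXRA (chr9:137356201-137359000), where 5hmC went from a mean of 8.62 to 17.2 CPM with the libraries apart (log2 fold change 0.97, SE 0.156, adjusted p = 4.49e-06). A strong region 19917 bases upstream of RXRA (chr9:137197201-137198400), at 30.5 CPM before and 37.3 CPM after, did not pass (0.28, SE 0.174, adjusted p = 0.159). Upstream of RXRG, chr1:165438801-165439200 rose from a mean of 1.44 to 2.61 CPM (0.75, SE 0.205, adjusted p = 0.00270), but did not pass with factors from strong regions (0.47). A second region there (chr1:165435001-165436200) rose by less (0.56, SE 0.177, adjusted p = 0.00808) and did not pass without undifferentiated replicate 1 (0.50) or differentiated replicate 3 (0.51), or with library totals (0.35), factors from strong regions (0.27) or DESeq2 (0.56). All these places were chosen after their values were seen, and their link to the receptor genes was not tested.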
